A study of Mus musculus with 12 samples.

Results

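The genes described here encode membrane carriers of ions, bicarbonate, phosphate and metals. They comprise 74 of the 18193 genes measured, taken as every gene whose only symbol in the platform annotation belongs to 1 of 12 solute carrier families, whatever its values. The families are Slc4a (9 genes, bicarbonate), Slc8a (3, sodium and calcium exchange), Slc9a (7, sodium and proton exchange), Slc12a (8, cation and chloride cotransport), Slc20a (2) and Slc34a (3, both sodium and phosphate cotransport), Slc24a (4, potassium-dependent sodium and calcium exchange), Slc26a (10, anion exchange), Slc30a (10, mainly zinc export), Slc39a (14, mainly zinc import), Slc40a (1, iron export) and Slc41a (3, magnesium). Between them they had 138 probe sets, from 1 to 5 per gene. Scaffold proteins with similar names, such as Slc9a3r1, are not carriers and were left out. Family members without a probe set of their own symbol were not analysed here.

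RNA was measured in freshly sorted neural stem cells of the adult subventricular zone, a region lining the lateral ventricles where neurons are born throughout life. Donors were male C57B6J mice. Cells were in 3 states: quiescent (3 arrays, replicates 1, 2 and 4), quiescent in recovery 48 h after irradiation (4 arrays, replicates 1 to 4) and activated (3 arrays, replicates 1 to 3). Strain, sex and tissue were shared by all groups. No source used here gives the radiation dose, the sorting markers or whether replicates came from separate animals. The p-values therefore reflect spread among these samples alone, and that spread may be technical. Of 12 arrays described, 10 had values, and this number limits the precision of each difference. Values are deposited linear intensities with mean ± SD. Intensities up to 10 are treated as near the lower limit, where a value is background and not a level.

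These carriers set the ionic climate of a cell. Bicarbonate and proton carriers hold its pH, cation and chloride cotransporters set cell volume and the chloride level on which the response to GABA depends, and phosphate carriers feed nucleotide and membrane synthesis. Zinc is moved out of the cytosol by Slc30a proteins and into it by Slc39a proteins, and metallothioneins buffer what remains. In the adult brain, astrocytes are known for sodium bicarbonate cotransport and for clearing ions around neurons, and quiescent neural stem cells share much of the astrocyte programme.

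Most stem cell markers followed the labelled states. Of 13 astroglial and quiescent stem cell markers, 11 were called lower in activated than in quiescent cells. Gfap overlapped between these groups, at 418, 164 and 7 in quiescent and 152, 108 and 26 in activated cells. The summed intensity of 13 astroglial and quiescent stem cell markers lay between 165480 and 177377 on quiescent arrays, between 156947 and 171128 on irradiated arrays and between 34950 and 53508 on activated arrays. The sum of 9 cycling and activated stem cell markers was 42094 to 47416 on activated arrays and at most 2746 on the others. Transcripts of other cell types also moved: the 9 oligodendrocyte markers summed to 23980 to 34749 in quiescent, 18584 to 39621 in irradiated and 1767 to 5501 in activated cells, with none near the lower limit on all arrays. Of 9 choroid plexus markers, Ttr held most of the sum (10772 to 17831 in quiescent, 9992 to 19809 in irradiated, 6 on each activated array). The other 8 summed to 46 to 614, with Folr1 and Aqp1 near the limit on all arrays. The 10 neuroblast markers summed to 19635 to 24219 on activated arrays and at most 1913 on the others, and the 9 pericyte and fibroblast markers to 406 to 820 against 1654 to 8710. The 8 microglia and macrophage markers summed to 4481 on activated replicate 3 and at most 2666 on the other arrays. The part of these cell types in the results below was not tested. In bulk samples, fewer cells of a type and less RNA per cell cannot be told apart.

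Among the 74 carriers, 23 stayed at 10 or less throughout the 10 arrays, 9 exceeded it on 1 array, 20 on 2 to 9 arrays and 22 on every array. The kidney and gut phosphate carriers Slc34a1, Slc34a2 and Slc34a3 were among the 23, as were the red cell anion exchanger Slc4a1, the kidney cotransporters Slc12a1 and Slc12a3, pendrin (Slc26a4), prestin (Slc26a5) and the pancreatic islet zinc carrier Slc30a8. Exactly 8 carriers exceeded 100 on each array. On all arrays of a group, 20 exceeded 100 in quiescent, 17 in irradiated and 10 in activated cells. This rule is stricter for the irradiated group, which had 4 arrays against 3. The same counts were not made over all genes, so they are not read as a difference between states.

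The first comparison asked which carriers separate activated from quiescent cells. Single carriers of bicarbonate (1 of 9 Slc4a genes), potassium chloride (1 of 8 Slc12a), phosphate (1 of 2 Slc20a, by its brightest probe set) and magnesium (1 of 3 Slc41a) were called lower in activated cells, as were 3 of 24 zinc carriers. No carrier was called higher. In limma on log2(intensity + 16), with Benjamini-Hochberg adjustment over all 18193 genes, 7 of 74 carriers fell at an adjusted p under 0.05: Slc4a4, Slc12a4, Slc20a1, Slc30a1, Slc39a12, Slc39a14 and Slc41a1. Over all genes, 6.02% were called, 3.12% lower and 2.9% higher. The carriers' share was 9.46%, all lower. Among 260 other solute carrier genes, 20 were called lower and none higher. The arrays of both groups did not overlap for 16 carriers that were lower (9.47% of all genes) and for 1 that was higher (9.84% of all genes). The median log2 difference was -0.05 over the 74 carriers and 0 over all genes.

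**Figure D1:**
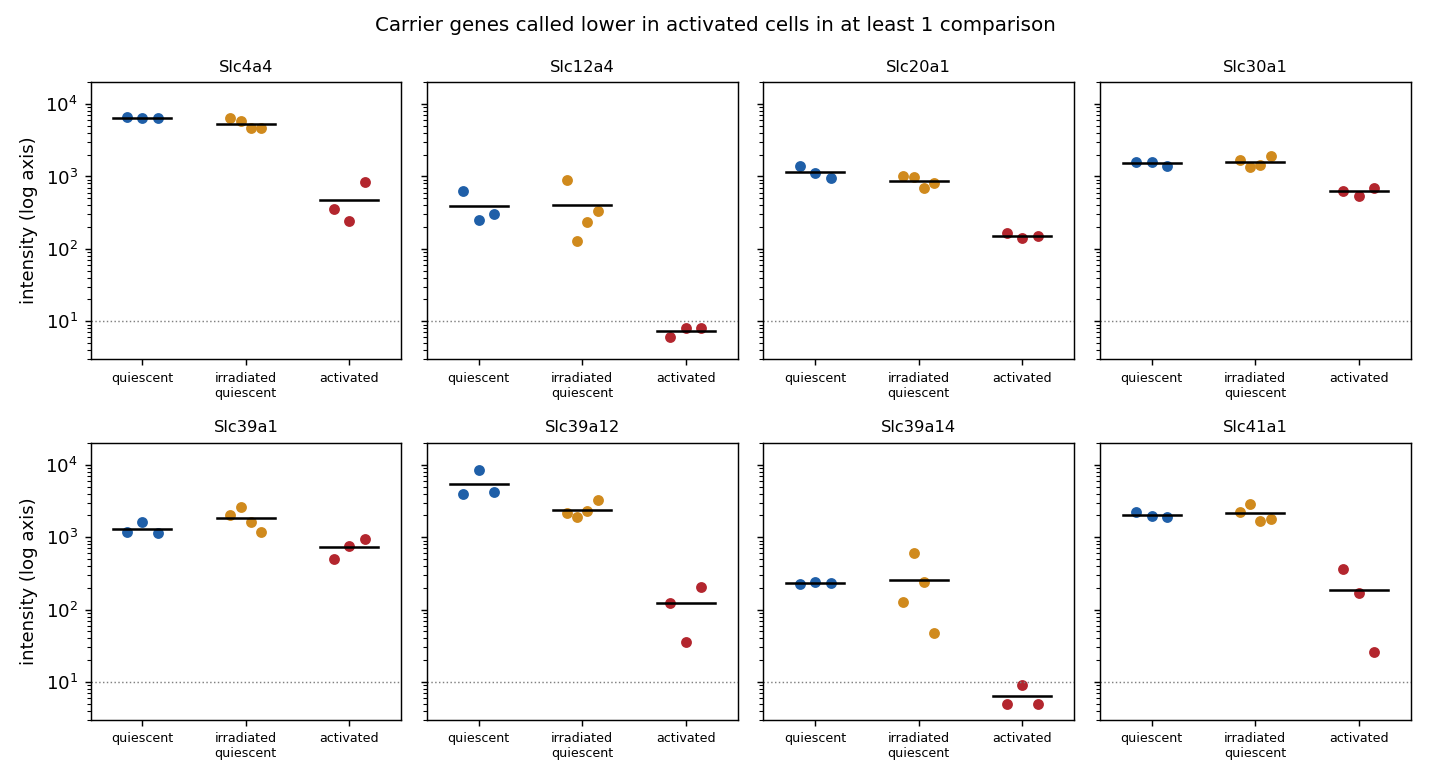
Intensity (log axis) on each array of the 8 carrier genes called lower in activated cells against quiescent or irradiated cells; points are arrays, black bars group means, and the dotted line marks an intensity of 10. Every activated array lies below every quiescent and irradiated array in each panel, and Slc12a4 and Slc39a14 lie under the dotted line in activated cells.

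Slc4a4 encodes the electrogenic sodium bicarbonate cotransporter NBCe1 of astrocytes. It stood at 6542, 6401 and 6451 on the quiescent arrays, at 6409, 5833, 4678 and 4649 on the irradiated arrays and at 350, 239 and 848 on the activated arrays. The quiescent arrays lay within a narrow band and the activated arrays were far below it, without overlap. The mean fell from 6464.7 ± 71.5 (SD, n = 3) to 479 ± 324 (SD, n = 3), a ratio of 13.5 and a log2 difference of -3.91 ± 0.40 (SE; adjusted p = 0.00135). Slc4a4 had 4 other probe sets. The 3 that were bright in quiescent cells differed by -5.18, -5.50 and -3.88, of which the first and the last were called when each probe set was tested on its own, and the remaining probe set read 5 on every array.

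The other bicarbonate carriers were not called. The anion exchanger gene Slc4a3 was at 240, 37 and 221 in quiescent and 11, 14 and 35 in activated cells, which did not overlap (log2 difference -2.09 ± 0.67, adjusted p = 0.156). Slc4a2, a widely expressed chloride and bicarbonate exchanger, overlapped between the groups with 183, 149 and 42 against 120, 120 and 39. The neuronal carrier Slc4a10 reached 60 on 1 quiescent array and was at 5 on each activated array.

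Among partners of pH control, a list of 22 carbonic anhydrases and associated proteins was counted, of which 19 were measured and 12 exceeded 10 on any array. Car2, the cytosolic carbonic anhydrase found in oligodendrocytes and choroid plexus as well as astroglia, fell from 5972.7 ± 2481 to 440 ± 336 (log2 difference -4.13 ± 0.80, adjusted p = 0.0247). Car3, a carbonic anhydrase best known from muscle and fat, rose from 5 on each quiescent array to 246 ± 73.3 (3.60 ± 0.17, adjusted p = 2.74e-05). No other member of that list was called.

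Most Slc12a carriers either load cells with chloride or extrude it. Slc12a4, the potassium chloride cotransporter KCC1 of cell volume control, read 633, 254 and 303 in quiescent cells and 897, 129, 235 and 331 in irradiated cells. In activated cells it read 6, 8 and 8, near the lower limit on every array. Its log2 difference was -4.04 ± 0.65 (adjusted p = 0.0108), which understates the change because the activated value is background. The call was lost with the replicate number as a block (adjusted p = 0.0659).

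Slc12a2, the sodium, potassium and chloride loader NKCC1, did not pass. Its values of 661, 1434 and 241 in quiescent and 1050, 359 and 363 in activated cells overlapped (log2 difference -0.25 ± 0.87, adjusted p = 1.00). Another probe set of Slc12a2 was lower in activated cells without overlap, at 596, 596 and 668 against 249, 378 and 222 (-1.12 ± 0.49, adjusted p = 0.341). The remaining one read 260, 1872 and 358 against 85, 285 and 94, overlapped and did not pass (adjusted p = 0.645). Slc12a9, a divergent member of the family, read 592, 154 and 597 against 125, 14 and 19, which did not overlap (-2.91 ± 0.79, adjusted p = 0.0903). Slc12a5, the chloride extruder KCC2 of mature neurons, varied widely within each state, at 221, 18 and 71 in quiescent, 165, 5, 5 and 5 in irradiated and 65, 5 and 490 in activated cells. The sum of 13 mature neuron markers was highest on quiescent replicate 1 (18367), between 1306 and 5124 on the irradiated arrays and between 559 and 1150 on the activated arrays. That sum was 5124 on irradiated replicate 2, where Slc12a5 read 5, and 980 on activated replicate 3, where Slc12a5 read 490. A link between Slc12a5 and these markers was not tested. KCC4 (Slc12a7) was at 64, 139 and 6 against 134, 83 and 209, again overlapping.

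None of the 11 measured genes among 12 listed regulators of these cotransporters (WNK kinases, Stk39, Oxsr1 and associated proteins) was called in any comparison. Of 13 measured sodium pump and calcium pump genes, 3 fell and 1 rose in activated cells, where 3.12% of all genes fell and 2.9% rose. Over all 6 partner lists, 9 genes fell and 2 rose, and the 9 became 2 with the replicate block, 4 with the other group out of the fit and 5 without quiescent replicate 2. Atp1b2, the astroglial beta subunit of the sodium pump, fell by 2.60 on the log2 scale (adjusted p = 0.00681) from 20126.3 ± 1207, and its regulator gene Fxyd1 fell by 2.95 (0.00194). Fxyd6, of the same regulator family, went from 10.7 ± 6.11 to 219.7 ± 118 (3.06 ± 0.34, adjusted p = 0.00201). The calcium pump gene Atp2a2 of the endoplasmic reticulum fell by 1.21 (0.0463).

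Phosphate enters cells through Pit1 (Slc20a1) and Pit2 (Slc20a2). Slc20a1 read 1402, 1122 and 965 in quiescent, 1015, 983, 691 and 812 in irradiated and 167, 140 and 151 in activated cells. The activated arrays were tightly grouped below all others, with a mean of 152.7 ± 13.6 against 1163 ± 221 (ratio 7.62, log2 difference -2.79 ± 0.18, adjusted p = 1.48e-04). A second probe set of the gene ran the other way, at 176, 130 and 54 in quiescent, 13, 32, 15 and 15 in irradiated and 452, 205 and 1524 in activated cells. Tested on its own it differed by 2.11 ± 0.70 from quiescent (adjusted p = 0.179) and by 3.99 ± 0.65 from irradiated cells (adjusted p = 0.0115). The third and dimmest probe set was lower without overlap, at 36, 48 and 126 in quiescent against 4, 23 and 24 in activated cells. It did not pass (-1.31 ± 0.40, adjusted p = 0.145). With the mean of all its probe sets Slc20a1 was not called (log2 difference -0.66, adjusted p = 0.196), so the call rests on its brightest probe set. Slc20a2 by its brightest probe set was lower without overlap, at 1580, 1548 and 820 against 164, 380 and 484, and did not pass (-1.96 ± 0.61, adjusted p = 0.144). Its other probe set overlapped, at 561, 263 and 723 against 737, 19 and 52 (-2.02 ± 1.14, adjusted p = 0.522).

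**Figure D2:**
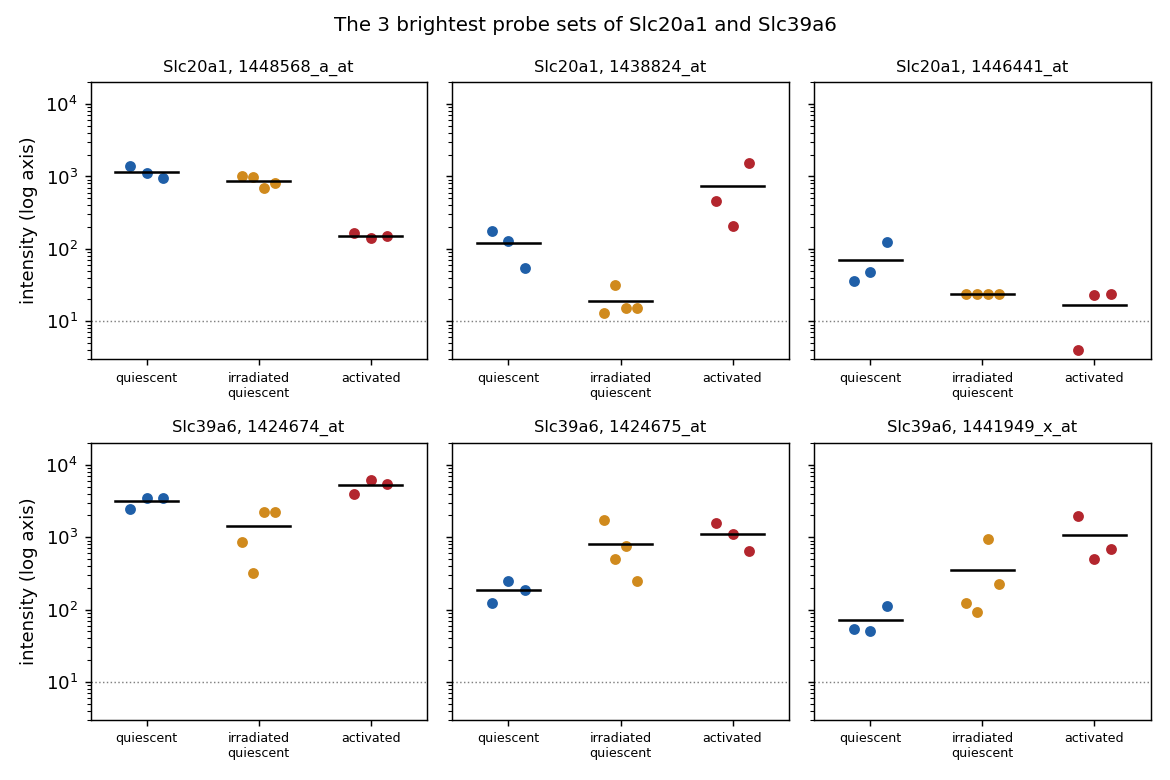
Intensity (log axis) on each array of the 3 probe sets of Slc20a1 (top) and the 3 brightest of 4 of Slc39a6 (bottom); points are arrays, black bars group means, and the dotted line marks 10. The first Slc20a1 probe set is lowest and the second highest in activated cells, where the third has its lowest mean. The first Slc39a6 probe set is lowest in irradiated cells, whereas the other 2 have their lowest mean in quiescent cells.

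Exchangers of sodium against protons or calcium were mostly dim. Slc9a9, the endosomal proton exchanger NHE9, read 198, 573 and 309 in quiescent and 7, 16 and 7 in activated cells, without overlap (-3.75 ± 1.02, adjusted p = 0.0913). A second probe set of Slc9a9 read 120, 212 and 150 against 17, 16 and 17 and was called on its own (-2.40 ± 0.46, adjusted p = 0.0246), as was the mean of all 4 (log2 difference -1.54, adjusted p = 0.0385). The brightest was called without the dimmest 50% of genes (adjusted p = 0.0232), with only these 2 groups in the fit (0.0285) and without irradiated replicate 2 (0.0304). Slc24a3, a potassium-dependent sodium and calcium exchanger, was at 115, 186 and 176 against 13, 5 and 6 (-2.86 ± 1.00, adjusted p = 0.198). The epithelial proton exchanger Slc9a3 and the calcium exchanger Slc24a4 exceeded 10 on 1 array each, with 21 on quiescent replicate 4 and 12 on activated replicate 1. The Slc8a genes stayed near the limit apart from 109 for Slc8a1 on quiescent replicate 2 and 3 arrays of Slc8a3 (11, 48 and 16).

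Of the Slc26a anion exchangers, 5 of 10 exceeded 10 on any array. Slc26a6, an exchanger of chloride, oxalate and bicarbonate, read 268, 260 and 99 in quiescent and 4, 8 and 88 in activated cells (-2.50 ± 0.75, adjusted p = 0.125). The sulfate carrier Slc26a2 overlapped, at 130, 8 and 96 against 132, 26 and 7.

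Magnesium carriers were represented by Slc41a1, a sodium-dependent magnesium exchanger of the plasma membrane. It read 2247, 1941 and 1922 in quiescent, 2229, 2848, 1683 and 1804 in irradiated and 366, 171 and 26 in activated cells. The mean fell from 2036.7 ± 182 to 187.7 ± 171 (ratio 10.9, log2 difference -3.83 ± 0.71, adjusted p = 0.0208), and the second probe set of the gene was also called on its own (-3.24 ± 0.73, adjusted p = 0.0487). The call of the brighter probe set was lost without quiescent replicate 1 (adjusted p = 0.0720), quiescent replicate 2 (0.0663), quiescent replicate 4 (0.0638) or activated replicate 2 (0.0560). Fitting just these 2 groups (0.133) or adding the replicate block (0.0876) also lost it. Slc41a2 and Slc41a3 were near the lower limit on most arrays. Of 13 measured genes of magnesium and phosphate handling outside these families, Nipa1, another magnesium carrier gene, fell by 4.02 (adjusted p = 0.0205) and the others were not called.

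Zinc carriers made up 24 of the 74 genes, and 3 of them fell, where 3.12% of all genes did. Metal levels reach genes through MTF1, a zinc-sensing factor that binds metal response elements in promoters such as those of metallothioneins and Slc30a1. The core of that element was searched as TGCACNC or TGCGCNC on both strands, in windows from 250 bases before to 50 after each start site in RefSeq (GRCm38.p6, 59 of the 74 carriers matched). It was found in 12 of 25 windows of 20 zinc carrier genes (48.0%), 6 of 10 for Slc30a and 6 of 15 for Slc39a, against 25.7% of all 32851 windows. The 250 bases before the start site are shown for the called zinc exporter and for the importer with the steepest fall, with the metallothionein gene Mt1 beside them. All are on the plus strand, and capitals mark the core, which reads TGCACTC on the minus strand in Slc30a1 and TGCACAC on the plus strand in Mt1. Slc30a1 lies at chr1:191906531-191906780, Slc39a12 at chr2:14388148-14388397 and Mt1 at chr8:94178839-94179088.
Slc30a1: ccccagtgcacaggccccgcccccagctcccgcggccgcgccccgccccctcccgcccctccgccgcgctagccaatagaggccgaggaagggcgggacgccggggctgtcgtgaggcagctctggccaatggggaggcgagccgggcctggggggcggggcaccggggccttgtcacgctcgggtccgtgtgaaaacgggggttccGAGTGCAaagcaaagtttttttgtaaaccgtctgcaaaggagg
Slc39a12: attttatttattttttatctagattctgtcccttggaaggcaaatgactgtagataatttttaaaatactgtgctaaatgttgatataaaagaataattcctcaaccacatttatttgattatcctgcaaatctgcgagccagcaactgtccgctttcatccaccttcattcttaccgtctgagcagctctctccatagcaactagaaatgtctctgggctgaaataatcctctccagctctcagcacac
Mt1: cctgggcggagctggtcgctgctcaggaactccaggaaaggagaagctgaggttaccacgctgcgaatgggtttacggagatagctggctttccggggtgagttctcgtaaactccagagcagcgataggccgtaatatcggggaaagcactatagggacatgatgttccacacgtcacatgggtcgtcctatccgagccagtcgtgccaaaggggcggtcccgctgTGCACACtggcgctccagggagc
The core begins 43 bases before the start site in Slc30a1 and 23 in Mt1, and the window of Slc39a12 holds none. Past the start site, Slc30a1 has 1 further match and Mt1 has 2 (TGCACTC and TGCGCTC). Which of the Mt1 matches are known elements was not checked. A match of letters is a description and not a site.

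Slc30a1 encodes ZnT1, the zinc exporter of the plasma membrane. It read 1573, 1607 and 1415 in quiescent, 1664, 1347, 1442 and 1912 in irradiated and 624, 537 and 703 in activated cells. All 3 activated arrays lay below the other 7, and the mean went from 1531.7 ± 102 to 621.3 ± 83.0 (ratio 2.47, log2 difference -1.29 ± 0.15, adjusted p = 0.00223). The call was lost with the replicate block (adjusted p = 0.0536) and without the dimmest 50% of genes (0.0860). The second probe set of the gene overlapped, at 195, 250 and 197 against 250, 168 and 110 (-0.32 ± 0.27, adjusted p = 0.680).

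No other Slc30a gene passed in the fit of all arrays. Slc30a10, a manganese exporter that shares the family fold, read 616, 1187 and 194 against 135, 6 and 6 (-3.70 ± 0.93, adjusted p = 0.0687). It was called after 75th percentile scaling (adjusted p = 0.0472), on leaving out activated replicate 1 (0.0201) and when the dimmest 50% of genes were removed (0.0178). Activated replicate 1 was the only activated array on which the gene exceeded 10. Its second probe set read 705, 312 and 135 against 400, 4 and 21. That probe set overlapped and did not pass on its own (-2.29 ± 1.54, adjusted p = 0.645). Slc30a4, an endosomal zinc carrier, read 577, 992 and 1966 against 159, 488 and 75 (-2.40 ± 0.81, adjusted p = 0.180). By their brightest probe sets these 2 did not overlap between the groups. Slc30a5, Slc30a6, Slc30a7 and Slc30a9 overlapped, at log2 differences from -1.70 to -0.53. Slc30a3, the zinc loader of synaptic vesicles, was at 4 or 5 on every array but 1.

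Slc39a12 (ZIP12), a brain zinc importer, had the steepest fall of the 74 genes on this scale. It read 3904, 8427 and 4196 in quiescent, 2155, 1908, 2334 and 3239 in irradiated and 124, 36 and 207 in activated cells. The 3 states did not overlap, with quiescent arrays highest and activated arrays lowest. Between quiescent and activated cells the mean fell from 5509 ± 2531 to 122 ± 85.5 (ratio 45.0, log2 difference -5.46 ± 0.55, adjusted p = 0.00121). A second probe set read 3347, 901 and 2694 against 847, 44 and 234, in the same direction and not called (-3.11 ± 0.97, adjusted p = 0.148).

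Slc39a14 (ZIP14), an importer of zinc, iron and manganese, was at 223, 241 and 235 in quiescent and 5, 9 and 5 in activated cells, near the lower limit there. Its log2 difference of -3.48 ± 0.72 (adjusted p = 0.0327) was lost without any 1 of 8 arrays (adjusted p 0.0540 to 0.0978), the exceptions being irradiated replicates 2 and 4. It was also lost with a pseudocount of 64 (0.0949), when its 4 probe sets were averaged (0.0942) and under the replicate block (0.101). Slc39a1 (ZIP1), a widely expressed importer, read 1163, 1616 and 1150 against 495, 763 and 941, without overlap (-0.85 ± 0.33, adjusted p = 0.255).

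Slc39a6 (ZIP6) and Slc39a10 (ZIP10), which pair in the membrane to import zinc, were the importers whose brightest probe sets had their highest means in activated cells. Slc39a6 read 2491, 3491 and 3513 in quiescent and 3995, 6220 and 5397 in activated cells, the only carrier lying higher without overlap (0.71 ± 0.70, adjusted p = 0.786). Its next brightest probe sets were higher by 2.43 ± 0.68 (adjusted p = 0.106) and 3.41 ± 0.88 (0.0793). Slc39a10 read 510, 1477 and 59 against 1469, 890 and 1136 and overlapped (1.57 ± 1.62, adjusted p = 0.809). Its second probe set ran the other way, at 823, 865 and 143 against 501, 422 and 148 (-0.55 ± 0.79, adjusted p = 0.931).

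**Figure D3:**
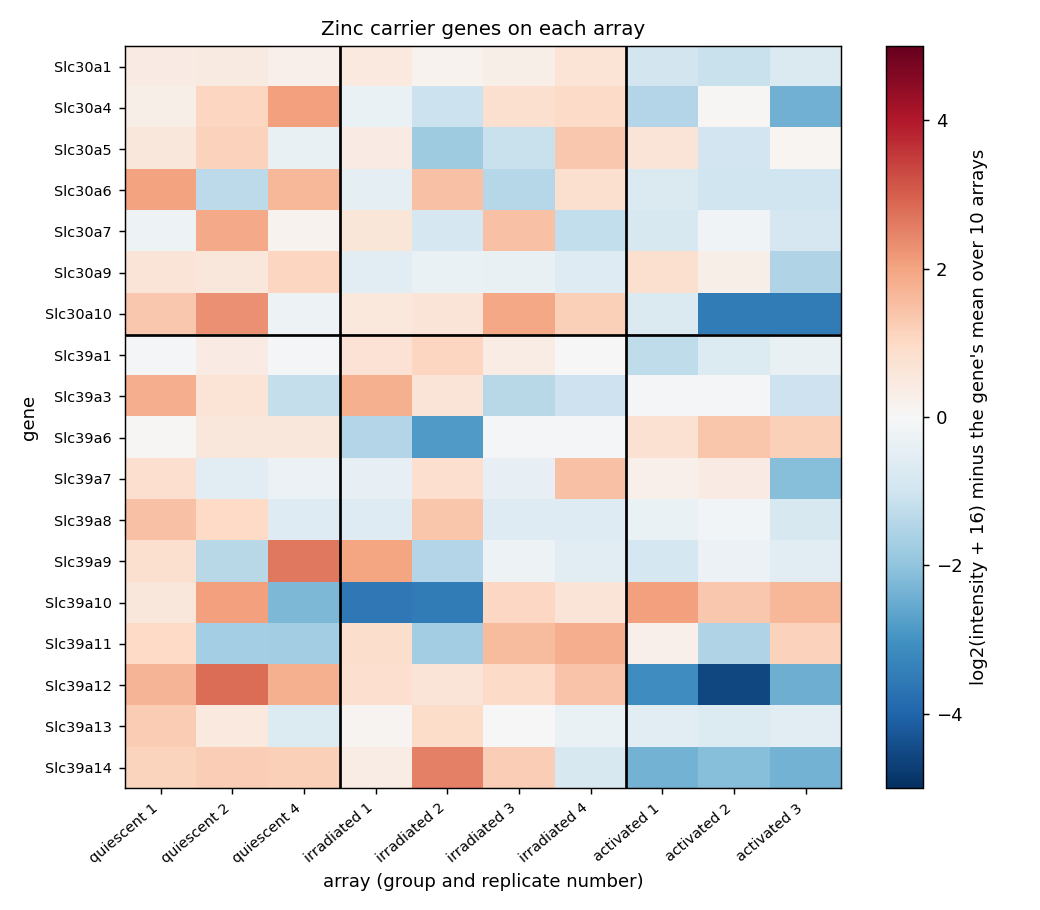
Log2(intensity + 16) of the 18 zinc carrier genes above 10 on at least 2 arrays, minus each gene's mean over the 10 arrays, by array (columns, grouped by state) with Slc30a genes above and Slc39a genes under the black line. Slc30a1, Slc30a10, Slc39a12 and Slc39a14 are blue on the 3 activated arrays, and Slc39a6 and Slc39a10 are red there.

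Of 11 measured genes of zinc and metal buffering, 3 fell and none rose, where 3.12% of all genes fell and 2.9% rose: Mt1 from 12193.3 ± 560 to 2697.7 ± 1369 (log2 difference -2.32 ± 0.36, adjusted p = 0.00990), Mt2 by 0.78 (0.00514) while the brain metallothionein gene Mt3 fell by 4.64 (0.0215). Iron export through ferroportin (Slc40a1) was near the lower limit on 9 of 10 arrays, with 98 on quiescent replicate 1. Of 16 measured iron genes, only Fth1, the ferritin heavy chain, was called (-0.72 ± 0.06, adjusted p = 4.88e-04), from 11917.7 ± 333 to 7242 ± 571.

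**Figure D4:**
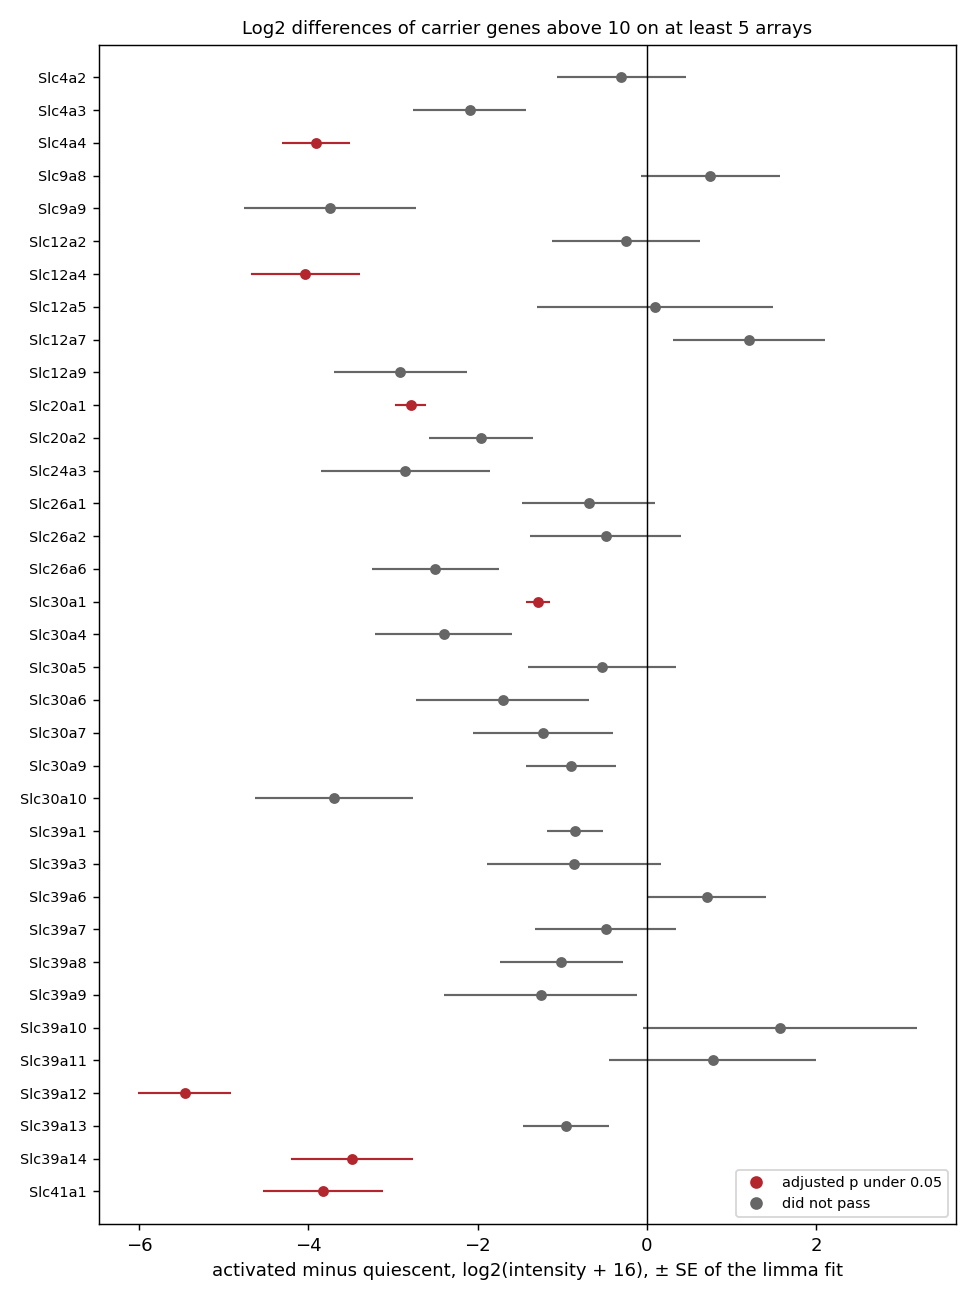
Log2 difference between activated and quiescent cells on the log2(intensity + 16) scale, ± SE of the limma fit, for the 35 carrier genes above 10 on at least 5 arrays, in family order; red marks an adjusted p under 0.05. The points run from -5.46 (Slc39a12) to 1.57 (Slc39a10), and the 7 red points lie below 0; since 7 of the 10 arrays are quiescent or irradiated, the choice of genes favours those bright in these states, and the balance of signs is not read.

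The next comparison asked what differed in quiescent cells 48 h after irradiation. In limma no carrier was called in either direction, where 0.011% of all genes were (2 of 18193), 0.0055% higher and 0.0055% lower. An unadjusted p under 0.05 in limma was found for 3 carriers (4.05%), close to the 3.97% of all genes. The arrays did not overlap for 3 carriers that were lower (1.4% of all genes) and 1 that was higher (1.56%).

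These 4 carriers were Slc9a8, Slc30a9, Slc39a6 and Slc39a12. Slc9a8, the Golgi proton exchanger NHE8, read 118, 87 and 23 in quiescent and 195, 824, 702 and 194 in irradiated cells (2.31 ± 0.77, adjusted p = 0.965). Slc30a9, a mitochondrial zinc carrier, read 386, 358 and 525 against 154, 187, 179 and 149 (-1.25 ± 0.50, adjusted p = 0.965). In both genes the irradiated arrays lay apart from the quiescent arrays, and neither passed over all genes.

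Slc39a6 read 856, 323, 2213 and 2253 in irradiated cells, below the quiescent arrays (-1.51 ± 0.66, adjusted p = 0.965). Its second probe set ran the other way, at 124, 249 and 185 in quiescent and 1728, 497, 766 and 245 in irradiated cells (1.74 ± 0.64, adjusted p = 0.962). Slc39a12 differed by -1.12 ± 0.51 in irradiated cells as read by its brighter probe set, and its second probe set differed by 0.48 ± 0.90. For these 2 genes the direction after irradiation thus depended on the probe set.

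The other carriers that fell in activated cells were not called after irradiation. Slc4a4 differed by -0.27 ± 0.38, Slc41a1 by 0.04 ± 0.67, Slc12a4 by -0.22 ± 0.60 and Slc39a14 by -0.36 ± 0.68. Slc20a1 differed by -0.40 ± 0.17, with an unadjusted p of 0.0464 in limma (adjusted p = 0.965). Slc30a1 differed by 0.04 ± 0.14. Its dimmer probe set, however, read 195, 250 and 197 in quiescent and 477, 521, 453 and 356 in irradiated cells, without overlap (1.02 ± 0.25, unadjusted p = 0.00430, adjusted p = 0.873).

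Activated cells were also compared with irradiated quiescent cells, a comparison that shares the activated arrays with the first. Against irradiated cells, 8 carriers fell and none rose (10.8%), where 7.1% of all genes were called, 3.69% lower and 3.41% higher. The arrays did not overlap for 14 carriers that were lower (7.96% of all genes) and 2 that were higher (8.23%), Slc39a6 and Slc39a10. The 8 called genes were the 7 named above and Slc39a1.

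Slc39a1 read 2017, 2579, 1611 and 1199 in irradiated cells, above the activated arrays, and differed by -1.31 ± 0.31 (adjusted p = 0.0493). That call was lost without any 1 of 9 arrays (adjusted p 0.0595 to 0.147), the exception being irradiated replicate 4. Slc4a4 differed by -3.63 ± 0.38 (adjusted p = 0.00123), Slc39a12 by -4.34 ± 0.51 (0.00238) and Slc12a4 by -3.81 ± 0.60 (0.00917). Slc41a1 differed by -3.87 ± 0.67 (adjusted p = 0.0131), a call lost with the quiescent arrays out of the fit (0.0575). Slc30a1 differed by -1.33 ± 0.14 (adjusted p = 0.00123), and here its second probe set was called on its own as well (-1.34 ± 0.25, adjusted p = 0.0207). The call of the brighter probe set did not survive removal of the dimmest 50% of genes (adjusted p = 0.0541).

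Slc20a1 differed by -2.39 ± 0.17 (adjusted p = 2.07e-04) by its brighter probe set, while the mean of its probe sets turned the sign (0.42, adjusted p = 0.408). Slc39a14 differed by -3.12 ± 0.68 (adjusted p = 0.0346), a call lost without any 1 of the same 8 arrays (adjusted p 0.0602 to 0.106). Slc30a10 did not pass (-3.64 ± 0.87, adjusted p = 0.0507) but was called without the dimmest 50% of genes (0.0117) and without activated replicate 1 (0.0157). The gene was also called after quantile normalization (adjusted p = 0.0442) or 75th percentile scaling (0.0356) and without quiescent replicate 4 (0.0475). Trend and robust moderation in limma (0.0399) and array weights (0.0428) called it too, and the other settings did not. Its second probe set did not pass on its own (-2.23 ± 1.44, adjusted p = 0.563). Slc12a9 did not pass either (-2.94 ± 0.74, adjusted p = 0.0610). It was called without the dimmest 50% of genes (0.0187) and without activated replicate 1 (0.029). Slc39a6 was higher by 2.22 ± 0.66 (adjusted p = 0.109) and was called higher only without the dimmest 50% of genes (0.0454). Of the partner genes, 8 fell and 2 rose, the same as against quiescent cells except for Atp2a2, which did not pass (-0.90 ± 0.26, adjusted p = 0.0947).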

How the data were processed

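Arrays were Affymetrix MOE 430 2.0, and RNA was amplified with the NuGEN Ovation Pico system, per the labels' protocols. The authors deposited 1 linear intensity per probe set and array, as whole numbers from 3 to 34883; the software that made them is not given in the sources used here. The 75th percentiles were 83 to 104, and 56.6% to 59.2% of probe sets per array were at most 10. Arrays correlated across genes at 0.82 to 0.91 within a group.

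Of 45037 probe sets, 34945 had 1 symbol, 932 several and 9160 none. By Entrez identifier 34741 matched the RefSeq table (GRCm38.p6), with no symbol to update. Each gene was represented by its brightest probe set, by mean intensity across the 10 arrays. Values were transformed as log2(intensity + 16) and fitted with limma (version 3.58.1, R 4.3.3; lmFit, eBayes, a mean per group, 10 arrays, 7 residual degrees of freedom, two-sided); p-values were adjusted by Benjamini-Hochberg over the 18193 genes; the code was tested on simulated data. This scale understates changes of dim genes. Genes were named if called, if among the 10 smallest p-values of a comparison or the 12 brightest carriers, or from a set list. Others are given as examples of their family, chosen with their values known. Members and lists were chosen with earlier results of these data known. Partner list genes were matched by symbol, and those without a match were not analysed here. Probe sets were also tested each on its own, an alternative chosen after seeing the data, with adjustment over the 34945 with 1 symbol. Other alternatives were other pseudocounts (4, 64), normalizations, filters, probe set summaries, fits and leaving out each array.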

Additional observations from a re-analysis of the deposited data

Results flagged for a closer look

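In the irradiated group, the only one of 4 arrays, 16 of the 47 carriers above 10 on at least 1 irradiated array had 1 array far above the others. The usual chance rate of about 1 in 20 groups does not apply to this count. Most of these genes exceeded 10 only through that array, with the others near the lower limit. For those genes, both the gap and its direction follow from how genes were chosen. Slc24a3, Slc26a6, Slc39a9 and Slc26a11 exceeded 10 on other irradiated arrays as well. On irradiated replicate 1, Slc24a3 read 892 (others 34 to 76), Slc39a9 227 (7 to 36), Slc12a5 165 (5 on each), Slc26a11 51 (9 to 12) and Slc9a7 14 (5 to 6). On irradiated replicate 2, Slc30a3 read 424 (4 to 5), Slc26a6 279 (81 to 102), Slc39a8 79 (7 on each), Slc26a2 40 (7 to 8) and Slc26a8 19 (5 on each). On irradiated replicate 3, Slc4a5, a bicarbonate cotransporter of the choroid plexus, read 439 (5 on each), Slc4a8 150 (5 on each), Slc41a2 67 (7 to 9), Slc8a3 48 (5 to 6), Slc39a4 18 (5 on each) and Slc4a10 16 (5 on each). None of these carriers was called in a comparison.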

How the results depend on the processing

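Each setting was run for the counts of carriers and of partner genes called and for each named gene. Leaving out each array in turn gave 5 to 8 carriers called between activated and quiescent cells (7 with all arrays), 6 to 8 against irradiated cells (8) and 0 after irradiation (0). The partner genes called were then 7 (without quiescent replicate 2) to 12 (11), 8 to 11 (10) and 0 (0). With the replicate block, 3 carriers and 4 partner genes were called between activated and quiescent cells. With only the 2 groups in the fit, 6 partner genes were called there and 5 carriers against irradiated cells. Without the dimmest 50% of genes, 10 carriers were called in each of the comparisons with activated cells, of which 6 were among those called otherwise. Same-numbered replicates deviated together by no more than r = 0.02 over 8 pairs (lowest -0.03). With 3 or 4 arrays per group, this cannot show whether they shared an animal or a batch. The mean of all probe sets turned Slc20a1 against irradiated cells to 0.42, because its probe sets run in opposite directions. The named genes were counted once per comparison and alternative setting. Of these outcomes, 50 lost and 19 gained the call, 1 changed sign and 1550 kept their side of the threshold. The 1550 include genes not called with all arrays, such as Slc34a3 at 5 on every array. They therefore do not measure how stable the calls were. Signals near the lower limit bound what can be read from the dim carriers.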
